A study of Mus with 8 samples.

Results

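Monocytes from control mice were cultured in an elastic or a viscous hydrogel of fibrotic-type matrix, and their transcripts were compared between the gels. The comparison uses 4 of the 8 libraries of the series, chosen by their titles: 2 from elastic gel (NbTz in the titles) and 2 from viscous gel (VLVG). All 4 came from C57BL/6 mice of the genotype Vav-iCre, a line that carries a Cre recombinase driven by the Vav gene, which is active in blood cells, without the mutant Jak2 allele. The other 4 libraries, from Jak2 V617F Vav-iCre mice in the same gels, entered the estimate of the spread and are given beside results as a second set of samples. Every culture, in both gels and both genotypes, was taken at day 3 and held 100 ng/mL GM-CSF, 200 ng/mL IL4 and 100 ng/mL PGE2, so no library shows monocytes without these factors. Each title also ends in a number that 1 elastic and 1 viscous library share. In order of size the control numbers are written W1 and W2 below, and those of Jak2 V617F cells J1 and J2. The labels do not state what a number stands for, the age of the mice or whether mice were pooled, so p-values measure the spread between libraries, which may be technical.

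Monocytes are circulating myeloid cells that enter tissue and become macrophages or dendritic cells. GM-CSF with IL4 is the usual mixture for turning them into dendritic-like cells in culture, and PGE2 is a lipid mediator that acts through cyclic AMP. Cells attached to a matrix pull on it through integrins and the actin cytoskeleton. An elastic network keeps pushing back, whereas a viscous one relaxes under the load, and this is the property that the design set out to vary between stiff gels. The gels can differ in other ways, and these cannot be told apart from elasticity here.

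The deposited tables carry Ensembl gene IDs without gene names, and 0 of the 17640 IDs matched the reference gene table. No pathway, cell type marker or promoter was therefore examined, the labelled cell type was not checked against its markers, and fewer cells of a type and less RNA per cell cannot be told apart in these bulk samples. The 4 control libraries held 30632355 to 35011427 counts and had at least 1 count for 16350 to 16744 IDs. The 14785 IDs kept after the low-count filter held at least 99.96% of the counts of each library. The 10 most abundant IDs took 8.07% to 9.58% of a control library.

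Among the 4 control libraries, the title number separated the samples more than the gel did. In an analysis of these 4 libraries alone, the first principal component held 57.5% of the variance in log2 CPM and split them by number, with scores of 55.2 and 47.4 for the viscous and elastic W1 libraries and −47.6 and −55.0 for the viscous and elastic W2 libraries. The second component held 25.7% and split them by gel, at 40.0 and 26.1 for viscous W1 and W2 and −44.9 and −21.2 for elastic W1 and W2. CPM, or counts scaled to 1e+06 per library, are counts over the library total after trimmed mean (TMM) scaling, and a prior of 2 counts, scaled to the library size, was added before taking log2.

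The gel difference was next taken within each number, as log2 CPM in elastic minus viscous gel. Over 14785 IDs its root mean square was 0.77 in W1 and 0.69 in W2. The difference between the numbers, W1 minus W2, had a root mean square of 0.96 in viscous and 0.97 in elastic gel. The gel differences were thus smaller than the differences between replicates. Both kinds of difference were largest for IDs with few counts. For the 6346 IDs with mean counts from 500 to below 5000 the gel differences were 0.44 (W1) and 0.34 (W2), against 0.59 (viscous) and 0.65 (elastic) between numbers. For the 1378 IDs with 5000 counts or more they were 0.35 and 0.39, against 0.69 and 0.76. For the gel differences, counting error alone would give 0.065 (W1) and 0.061 (W2) in the former of these classes and 0.023 in both numbers in the latter. Counting error was not computed for the differences between numbers. Below 50 counts it would give 0.63 in both numbers, against observed gel differences of 1.34 and 1.19.

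**Figure D1:**
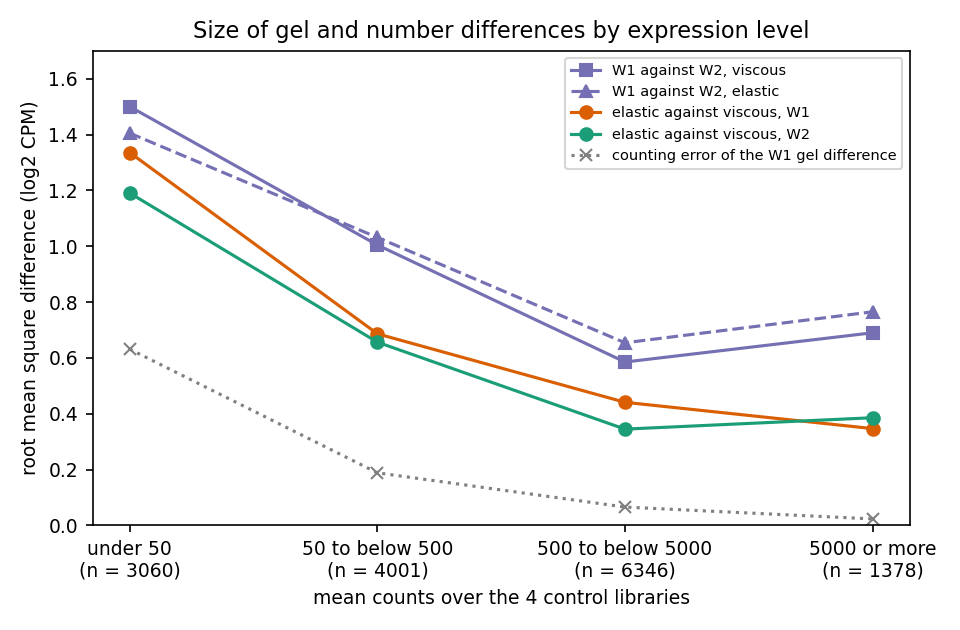
Root mean square difference in log2 CPM (vertical axis) for IDs in 4 classes of mean counts over the control libraries (horizontal axis). Purple lines stand for W1 against W2 within a gel, and orange and green lines for elastic against viscous within a number. The dotted line stands for counting error of the W1 gel difference. In each class both purple points lie above the orange and green points.

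The 2 numbers showed only loosely similar gel differences. Across 14785 IDs the difference in W1 correlated with that in W2 at r = 0.18 (Spearman's rho 0.21), and 57.9% of IDs had the same sign in both. These are descriptions across genes, which are not independent replicates, and the IDs of a number share the same 2 libraries. Among the 11725 IDs whose mean reached 50 counts, r was 0.26 and 58.8% had the same sign. The differences between numbers were more alike in the 2 gels. W1 minus W2 in viscous gel correlated with that in elastic gel at r = 0.53 over all IDs. Over those with at least 50 counts r was 0.70. For each ID, the 2 gel differences lie as far apart as the 2 number differences by construction. The higher correlation between numbers thus restates their larger size and is no separate result.

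**Figure D2:**
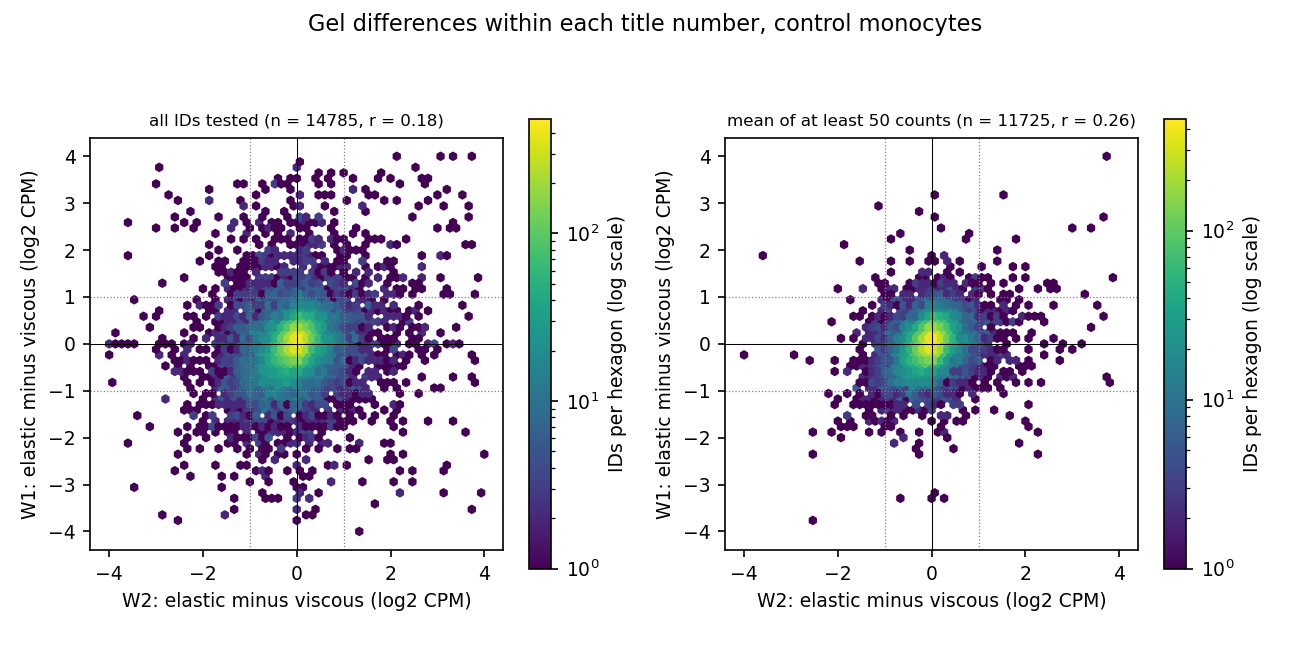
Elastic minus viscous log2 CPM in W2 (horizontal axis) and in W1 (vertical axis), with colour for the number of IDs per hexagon on a log scale and dotted lines at 1 and −1. The cloud is nearly round, with r of 0.18 for all IDs (left) and 0.26 for IDs whose mean reached 50 counts (right); 97 and 26 IDs lie outside the axes.

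Within W1 alone, 1517 IDs (10.3%) differed between the gels by at least 1 log2 unit, a 2-fold difference, and within W2 alone 1383 (9.35%) did. A smaller set differed by that much in the same direction in both numbers. It held 170 IDs that were higher in elastic gel (1.15% of those tested) and 180 that were lower (1.22%). In 174 IDs (1.18%) both differences passed 1 log2 unit in opposite directions. At a bar of 2 log2 units, 49 IDs were higher in both numbers (0.331%), 19 were lower in both (0.129%) and 41 had opposite directions (0.277%). Most of these IDs had low counts. Of the 170 higher and 180 lower IDs, 42 and 54 had a mean of at least 50 counts, against 23 of the 174 with opposite directions. At a mean of at least 500 counts, 10 were higher, 11 were lower and 4 had opposite directions. The same bar for the number, at least 1 log2 unit in both gels, was passed by 810 IDs that were higher in W1 (5.48%) and 498 that were lower (3.37%), with 162 in opposite directions (1.10%).

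The 4 Jak2 V617F libraries, numbered J1 and J2, give these sets a measurement in samples that did not choose them. Of the 170 higher IDs, 86 (50.6%) were also higher in elastic gel in both Jak2 V617F numbers and 16 (9.41%) were lower in both. Over all IDs tested, 25.4% were higher and 26.6% lower in both. Of the 180 lower IDs, 88 (48.9%) were lower in both Jak2 V617F numbers and 27 (15.0%) were higher in both. Among IDs whose control mean reached 50 counts the shares were larger, with 28 of the 42 higher IDs (66.7%) and 35 of the 54 lower IDs (64.8%) in the same direction in both. A difference of at least 1 log2 unit in both Jak2 V617F numbers was found for 34 of the 170 higher IDs (20.0%), where 0.954% of all IDs had one. It was found for 26 of the 180 lower IDs (14.4%), where 0.845% of all IDs had one. These sets hold more IDs with low counts than all IDs do. Among IDs whose control mean reached 50 counts, it was found for 17 of the 42 higher IDs (40.5%, against 0.350%). For the lower IDs at that level it was found for 9 of 54 (16.7%, against 0.316%). These 42 and 54 IDs still had low levels, with median control CPM of 5.46 and 4.96, against 29.5 for all IDs past that cut. The shares beside them are thus not matched for level. The IDs with opposite directions in control cells were counted in the same way. Of the 94 that were higher in W1 and lower in W2, 24 were higher and 29 were lower in both Jak2 V617F numbers, and of the 80 that were lower in W1 and higher in W2, 16 were lower and 25 were higher in both. These shares were not tested. They pair Jak2 V617F libraries by number, although same-numbered libraries did not deviate together from their group means in that genotype (correlation −0.089).

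**Figure D3:**
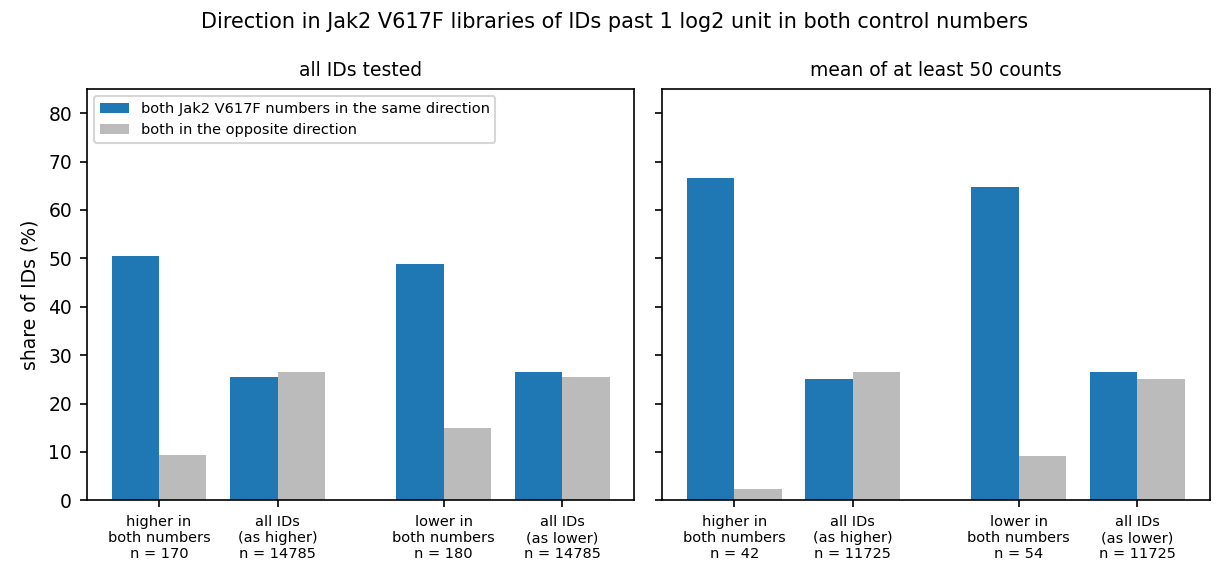
Share of IDs in percent (vertical axis) whose elastic minus viscous difference had the same direction (blue) or the opposite direction (grey) in both Jak2 V617F numbers, for the IDs at least 1 log2 unit higher or lower in both control numbers and for all IDs, over all IDs tested (left) and IDs whose mean reached 50 counts (right). The blue bars of the chosen sets reach 50.6% and 48.9% on the left and 66.7% and 64.8% on the right, against 25.2% to 26.6% for all IDs.

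The group means were then tested with edgeR's quasi-likelihood test, with 4 group means fitted to all 8 libraries and p-values adjusted by Benjamini-Hochberg over 14785 IDs. It called 0 IDs (0%) at an adjusted p under 0.05. At an unadjusted p under 0.05 it gave 717 (4.85%), 341 of them higher (2.31%) and 376 lower (2.54%) in elastic gel. About 739 would pass this level if no ID differed and the libraries varied independently. limma-voom also called 0 (0%), with 709 (4.80%) at an unadjusted p under 0.05. Both fits leave out the title number, although same-numbered control libraries deviated together (correlation 0.53). Differences between numbers thus count as spread here. With the number as a fixed block on all 8 libraries, edgeR again called 0, and 1397 of 14785 IDs passed the unadjusted level. Both elastic libraries lay above both viscous ones for 1938 IDs (13.1%) and below them for 2033 (13.8%). With 2 libraries per gel such separation is common without any difference between gels, so these shares alone show no gel effect. The median log2 fold change over all IDs was 0.001, and 90% of IDs lay between −0.88 and 0.76. Without the W1 libraries edgeR again called 0, with 990 at an unadjusted p under 0.05. Without the W2 libraries it called 1 ID, which was higher, with 1584 at that level. Each of these 2 fits leaves 1 control library per gel and takes the spread from the Jak2 V617F groups alone. They tested 15033 IDs (without W1) and 15473 (without W2), so their counts do not compare directly with those over 14785.

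DESeq2 called 35 IDs (0.237%), 23 higher (0.156%) and 12 lower (0.0812%). All 35 had groups that did not overlap, against 26.9% of all IDs. In both numbers, 14 of the 23 and 8 of the 12 passed 1 log2 unit, against 1.15% and 1.22% of all IDs. The 35 were called from the gel difference in these same control libraries. These counts therefore follow largely from the call and add no support. In the Jak2 V617F libraries, 22 of the 23 higher IDs were higher and 10 of the 12 lower IDs were lower in both numbers. Of the 35, 0 went the opposite way in both. Over all IDs tested, 25.4% were higher and 26.6% lower in both. DESeq2 took its spread from all 8 libraries, so the Jak2 V617F libraries had a part in these calls. For 6 of the 23, both viscous control libraries were at 0 counts, and for 1 of the 12 both elastic control libraries were. In the 16 higher and 10 lower IDs with counts in all 4 control libraries, the log2 fold changes fitted by edgeR were 0.54 to 5.64 and 0.56 to 2.03 in size.

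The 2 lower IDs with the smallest p are ENSMUSG00000022504 and ENSMUSG00000060586. They were chosen by small p in these same libraries. Close replicates, separated gels and intervals clear of 0 in control cells thus follow largely from that choice. ENSMUSG00000022504 stood at 43.9 CPM (W1) and 41.8 CPM (W2) in viscous gel and at 11.4 and 9.62 CPM in elastic gel. Replicates of this ID lay close together in each gel, and the gels lay far apart. Its level was 3.85-fold lower in elastic gel within W1 and 4.35-fold lower within W2, and the fitted log2 fold change was −2.03 (SE 0.18, 95% interval −2.47 to −1.59, n = 2 libraries per gel, edgeR adjusted p = 0.250). DESeq2 called it, with an adjusted p of 4.80e-15, as did limma-voom once the title number entered as a random block (0.0337); over 20 alternatives the adjusted p reached from the DESeq2 value to 1.00 and passed 0.05 in these 2. ENSMUSG00000060586 stood at 135.2 CPM (W1) and 184.2 CPM (W2) in viscous gel and at 40.5 and 46.6 CPM in elastic gel. Both elastic libraries lay far below both viscous ones, although the viscous replicates themselves differed. It was 3.33-fold lower in elastic gel within W1 and 3.95-fold lower within W2, with a fitted log2 fold change of −1.87 (SE 0.21, 95% interval −2.38 to −1.37, edgeR adjusted p = 0.497). Of the 20 alternatives only DESeq2 called it, with an adjusted p of 8.76e-11, and the highest adjusted p among them was 1.00. In Jak2 V617F cells the fitted log2 fold changes of these IDs were −1.60 (SE 0.18) and −1.42 (SE 0.21).

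The 2 higher IDs with the smallest p are ENSMUSG00000049233 and ENSMUSG00000021895. Their separation between gels in control cells likewise follows largely from that choice by small p. ENSMUSG00000021895 stood at 27.3 CPM (W1) and 26.4 CPM (W2) in viscous gel and at 43.9 and 48.5 CPM in elastic gel. It was 1.61-fold higher in elastic gel within W1 and 1.84-fold higher within W2, and the replicates of each gel lay closer together than the gels. The fitted log2 fold change was 0.78 (SE 0.11, 95% interval 0.52 to 1.05, n = 2 libraries per gel, edgeR adjusted p = 0.860). DESeq2 called this ID (adjusted p = 0.000133), alone among the 20 alternatives, which reached up to 1.00. In Jak2 V617F cells it stood at 28.7 CPM (J1) and 27.1 CPM (J2) in viscous gel and at 46.2 and 45.0 CPM in elastic gel. The levels in each gel were thus near those of control cells, and the Jak2 V617F log2 fold change was 0.71 (SE 0.11). The difference of the 2 matrix effects, Jak2 V617F minus control, was −0.074 for this ID (SE 0.16, 95% interval −0.45 to 0.30, edgeR adjusted p = 1.00).

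ENSMUSG00000049233 had 0 counts in both viscous control libraries, and 25 (W1) and 44 (W2) counts in the elastic ones. Its elastic level was 1.09 ± 0.40 CPM (SD, n = 2), with 0.807 CPM in W1 and 1.37 CPM in W2. This mean lay 12.4-fold above the mean of 0.0875 CPM that a floor of 3 counts in each viscous library would give. The edgeR adjusted p of this ID was 0.758. DESeq2 called it as higher (adjusted p = 0.00127), again alone among 20 alternatives reaching up to 1.00. The Jak2 V617F libraries did not repeat the pattern: they held 60 and 83 counts in viscous gel (J1 and J2) and 74 and 54 in elastic gel, without a common direction. The difference of the matrix effects had an adjusted p of 1.00 by edgeR and of 0.0362 by DESeq2. Over all IDs, edgeR called 0 (0%) such differences between the genotypes, with 254 (1.72%) at an unadjusted p under 0.05; limma-voom called 0 (0%), with 259 (1.75%) at that level, and DESeq2 called 2 (0.0135%).

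**Figure D4:**
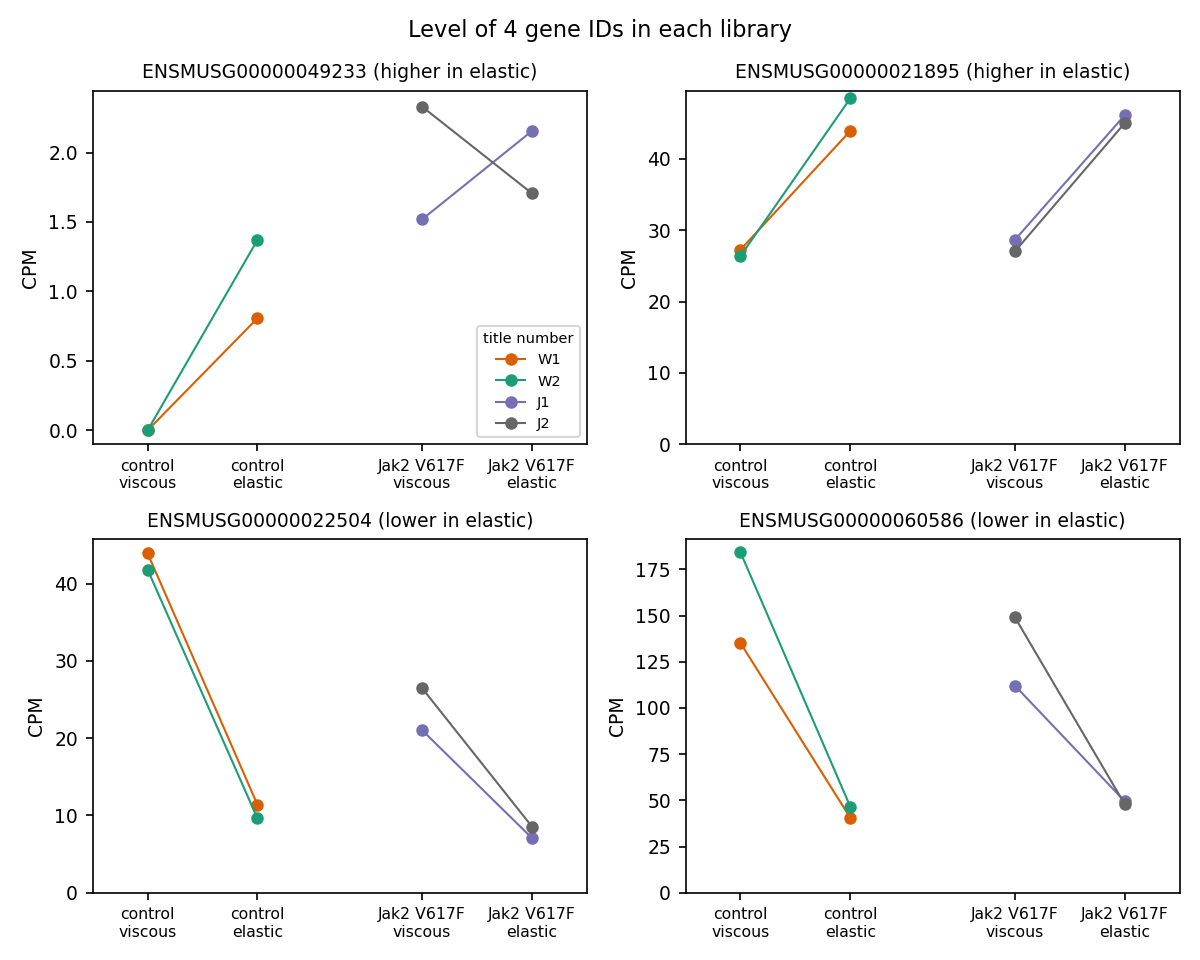
Level in CPM (vertical axis, linear) of the 2 higher and 2 lower IDs with the smallest p in each library, by genotype and gel (horizontal axis), with lines joining libraries of 1 title number. The control values of each ID do not overlap between gels, which its choice by small p favours. ENSMUSG00000049233, at 0 in both viscous control libraries, is at 1.52 to 2.33 CPM in the 4 Jak2 V617F libraries.

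A count of 0 in both libraries of 1 gel, as in ENSMUSG00000049233, was looked for in all 17640 IDs. Both viscous control libraries were at 0 and both elastic ones at 10 counts or more for 22 IDs. The reverse was found for 7 IDs. The same count was not made between title numbers, so the 22 and the 7 alone show no gel effect. The positive libraries held 10 to 378 counts for the 22 and 12 to 356 for the 7. In Jak2 V617F cells 0 of the 22 and 0 of the 7 showed the same pattern by this rule. In that genotype, 11 of the 22 were at 0 in both viscous libraries and 3 had at least 10 counts in both, while 12 had at least 10 counts in any library. Of the 7, 1 was at 0 in both elastic libraries, 1 had at least 10 counts in both, and 5 had at least 10 counts in any library. Salmon, which the submitters' notes name, divides reads that match several similar transcripts by estimation, so a count of 0 can depend on that division, which was not tested.

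A list of 55 IDs that mark the G2 and M phases against G1 was the only functional list that could be matched, through its Ensembl IDs. It describes dividing cells, which most blood monocytes are not. Of the 48 members tested, edgeR called 0. At an unadjusted p under 0.05, 2 of the 48 were higher and 2 lower, where 2.31% and 2.54% of all IDs were. Both elastic libraries lay above both viscous ones for 7 members (14.6%, against 13.1% of all IDs) and below them for 3 (6.25%, against 13.8%). The summed level of the 48 was 1184.9 CPM (W1) and 1144.3 CPM (W2) in viscous gel and 1172.4 and 1118.8 CPM in elastic gel. The groups overlap, but within each number the sum was slightly lower in elastic gel. In Jak2 V617F cells it was also lower in both numbers, at 1146.5 (J1) and 1163.3 CPM (J2) in viscous and 1119.8 and 1096.0 CPM in elastic gel. This difference was not tested, and the median over members has the other sign. That median log2 fold change in control cells was 0.042, against 0.001 over all IDs, and it was −0.041 without the viscous W2 library and −0.020 without the elastic W1 library.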

How the data were processed

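The authors deposited whole, unnormalized counts per Ensembl gene ID, and the series table and the 8 single-library tables were checked to be identical. The submitters' processing notes name Salmon, DESeq2 and GRCm38; versions, rounding, filtering and strand are not given in the sources used here. No ID had a sum under 10 counts. Near-identical and overlapping genes are uncertain and were not marked.

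Counts were filtered with filterByExpr, scaled by TMM and tested with edgeR 4.0.16 in R 4.3.3, two-sided; standard errors come from the test statistic. Alternatives were DESeq2 1.42.0, limma-voom (limma 3.58.1), 2 other scalings, 2 other filters, a fit of only the 4 control libraries, the title number as a block, and libraries left out. DESeq2 left 860 adjusted p-values undefined, which did not count as calls. The counting error is the Poisson error of a log2 ratio of counts. Scripts were tested on simulated data.

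The comparison, lists and rules were chosen with earlier results of these data known. Without gene names, the rule named the 2 higher and 2 lower IDs with the smallest p, and 41 gene lists and a promoter search were not run. The G2 and M list (training pairs of scran 1.30.0), the sets in Jak2 V617F cells and the IDs at 0 in 1 gel were added after seeing the data. Control replicates were no repeat deposits, since their counts differed beyond sampling noise (chi-square over its degrees of freedom 207.3 in viscous and 262.4 in elastic gel). Figures were drawn with matplotlib 3.10.9.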

Additional observations from a re-analysis of the deposited data

How the results depend on the processing

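edgeR's 0 calls for the gel in control cells held in 17 of 20 alternatives, among them both other scalings, both other filters and each library left out (0 to 0 calls). The exceptions were DESeq2 (35), limma-voom with a random block (1) and the fit without both W2 libraries (1). IDs at an unadjusted p under 0.05 numbered 717, and 287 on only the 4 control libraries, 1584 without both W2 libraries and 495 to 1212 with 1 library left out (1212 without viscous W2 and 1196 without elastic W2). For the difference of the matrix effects, DESeq2 called 2, and the 254 IDs became 1030 without both W2 and 443 without both W1 libraries, and 87 to 695 with 1 library left out (531 and 695 without viscous and elastic W2, 87 without elastic J2). Restricting to a mean of at least 50 counts kept 11725 of 14785 IDs. The sets past 1 log2 unit in both numbers went from 170 to 42 (higher) and from 180 to 54 (lower). The set with opposite directions went from 174 to 23, and those between numbers from 810 to 489 and from 498 to 307. The fits also tested unlike numbers of IDs, such as 14249 on only the 4 control libraries and 15473 without both W2 libraries. The cause of the shifts between settings was not tested. None of the 80 alternative fold changes of the 4 named IDs turned its sign, and 5 reached an adjusted p under 0.05; these IDs were chosen by small p in the same libraries, so this adds no support.

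With the title number as a fixed replicate block, edgeR called 0 in control cells on all 8 and on only the 4 control libraries. At an unadjusted p under 0.05 these fits gave 1397 of 14785 and 1337 of 14249 IDs, against 717 of 14785 without a block. With a random block (correlation 0.38), limma-voom called ENSMUSG00000022504 (adjusted p = 0.0337), with 1391 of 14785 IDs at that unadjusted level, against 709 without a block. For the difference of the matrix effects these counts were 531 (fixed) and 587 (random). Same-numbered libraries deviated together in control cells (correlation 0.53, the value given above for the number differences) and not in Jak2 V617F cells (−0.089). The labels do not say what the number marks, so it was not used as a pairing in the main test.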
